A study of Homo sapiens with 24 samples.

Results

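The genes described here are the SOX, GATA and TBX transcription factors and the LHX, NKX, DLX, sine oculis (SIX2 and its relatives) and IRX homeobox factors measured in KARPAS-422, an established human diffuse large B-cell lymphoma line. They were taken by symbol (one of these 8 letter codes followed by a digit), and each was read from the brightest of its probe sets over all 24 arrays. The choice gave 87 of the 19775 genes on the array. There were 72 protein-coding genes, 14 long non-coding RNAs that carry the name of a neighbouring factor, and 1 pseudogene. The SOX family gave 24 genes, TBX 16, NKX 11, GATA 9, LHX 9, DLX 7, sine oculis 6 and IRX 5, and 46 of the 87 had more than 1 probe set. Of the 78 protein-coding genes that RefSeq lists under these names, 6 were not analysed here.

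KARPAS-422 carries the EZH2 mutation Y641N, per the genotype label, so the control groups carry it too. Cells received the vehicle DMSO or an EZH2 inhibitor at 5 uM, which the labels do not name further, and RNA was taken at days 1, 2, 3 and 6. Each of the 8 groups had 3 arrays, called biological triplicates of this single line; how the cultures were separated is not stated, so the p-values measure the spread between these samples. Values are log2 expression after RMA, and a difference of 1 is a 2-fold change on that scale. A gene was called changed when its adjusted p, from limma with Benjamini-Hochberg adjustment over the 19775 genes, was under 0.05. All differences are inhibitor minus DMSO on the same day, and errors on them are standard errors of the fit with n = 3 arrays a group.

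EZH2 is the methyltransferase of the Polycomb complex PRC2 and trimethylates histone H3 at lysine 27. In stem cells and in most differentiated tissues the genes of SOX, GATA, T-box and homeobox factors outside their own lineage are textbook targets of that mark, and their promoters are often rich in CpG. In B cells most of these factors have no known role, and their genes are usually kept off. The comparison therefore asks which of them came on when EZH2 was inhibited, and when. EZH2's own mRNA differed by 0.05, -0.09 and -0.29 at days 1, 2 and 3 with no call, though day 3 was called in the fit blocked on replicate number. It was lower by 0.64 ± 0.12 at day 6 (adjusted p = 8.9e-05). An mRNA level does not report the enzyme's activity.

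The promoters of 3 of the genes on which the result turns are shown, since SOX2-OT differed most among the genes at background, SOX2 lies inside it, and SOX5 rose with the highest CpG count among the windows read. Each is the 250 bases before the listed start, from RefSeq on GRCh38.p14, written 5′ to 3′ on the gene's strand with every CG in capitals. The SOX2-OT window is chr3:181056430-181056679 (plus strand), the SOX2 window chr3:181711675-181711924 (plus strand) and the SOX5 window chr12:24562492-24562741 (minus strand, at the first listed transcript).
SOX2-OT: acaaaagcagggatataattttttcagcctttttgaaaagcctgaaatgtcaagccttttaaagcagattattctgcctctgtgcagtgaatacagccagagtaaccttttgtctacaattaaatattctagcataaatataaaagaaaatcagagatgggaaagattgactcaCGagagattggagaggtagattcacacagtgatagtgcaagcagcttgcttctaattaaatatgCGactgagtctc
SOX2: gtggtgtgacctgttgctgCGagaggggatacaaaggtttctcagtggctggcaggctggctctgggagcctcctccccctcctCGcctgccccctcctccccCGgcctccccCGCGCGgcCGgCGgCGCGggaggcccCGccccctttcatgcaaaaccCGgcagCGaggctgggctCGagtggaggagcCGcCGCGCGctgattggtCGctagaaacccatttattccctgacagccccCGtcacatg
SOX5: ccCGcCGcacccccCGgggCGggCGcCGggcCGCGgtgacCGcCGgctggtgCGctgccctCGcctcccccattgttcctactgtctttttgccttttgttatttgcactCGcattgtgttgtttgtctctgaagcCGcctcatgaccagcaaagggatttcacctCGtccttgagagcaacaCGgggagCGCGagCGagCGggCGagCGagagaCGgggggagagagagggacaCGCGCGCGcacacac
The SOX2-OT window held 2 CpG at 36.4% G and C, and 85.3% of all 35116 windows of this length held at least as many. The SOX2 window held 20 CpG at 68.8% (32.4% of windows held as many), and the SOX5 window 27 at 65.6% (17.7%). The SIX4 and SOX6 windows, not printed, held 11 and 17 CpG, against a median of 11 over all windows. A CCAAT box (CCAAT on either strand) was found once each in the SOX2, SOX2-OT and SIX4 windows and not in the other two, and in 32.0% of all windows. Windows were at hand for 59 of the 87 genes (67.8%), and the CpG content of the genes that rose was not compared with the rest.

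Most of these factors stayed at background throughout. RMA makes no detection calls, so a background level was set from 154 genes of the olfactory receptor, bitter taste receptor and hair keratin-associated protein families, which a B-cell line has no known use for: the 95th percentile of their mean over the 12 DMSO arrays, 5.67. Probe sets differ in their own brightness, so this level is a rough aid. By the mean over the 12 DMSO arrays, 48.2% of all genes and 67 of the 87 lay at or under it. The share of all genes at or under it in all 8 groups was not counted. By this level, 65 of the 87 genes (52 of them protein-coding) had group means at or under background in all 8 groups. Another 17 were above it in all 4 DMSO groups, and 5 (LHX5, LHX6, SOX5, TBX1 and TBX6) crossed it. Of the 65, 46 were called at no day. Their differences at day 6 ran from -0.37 to 0.19 with a median of -0.103, and no upper 95% bound was above 0.44. They include GATA3 and TBX21, the master factors of helper T cells, named here after their values were seen: GATA3 differed by -0.04 ± 0.10 and TBX21 by -0.11 ± 0.13 at day 6.

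No gene went from background in all DMSO groups to above it under the inhibitor by that rule. TBX19 came nearest, with a day 6 mean of 5.66 under the inhibitor. By a second rule, added after the data were seen (a call of at least 1 log2 with DMSO at background), SOX2-OT was the single gene to pass at day 6, though its inhibitor mean of 4.87 stayed under the level. The level lies high among the reference genes, whose median DMSO mean was 3.83. SOX2-OT went from under that median in DMSO (2.39) to above it at day 6. SOX2-OT was 1 of 67 factors whose DMSO mean lay at or under the level (1.49%), while 379 of all 9528 such genes passed the same rule (3.98%).

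**Figure D1:**
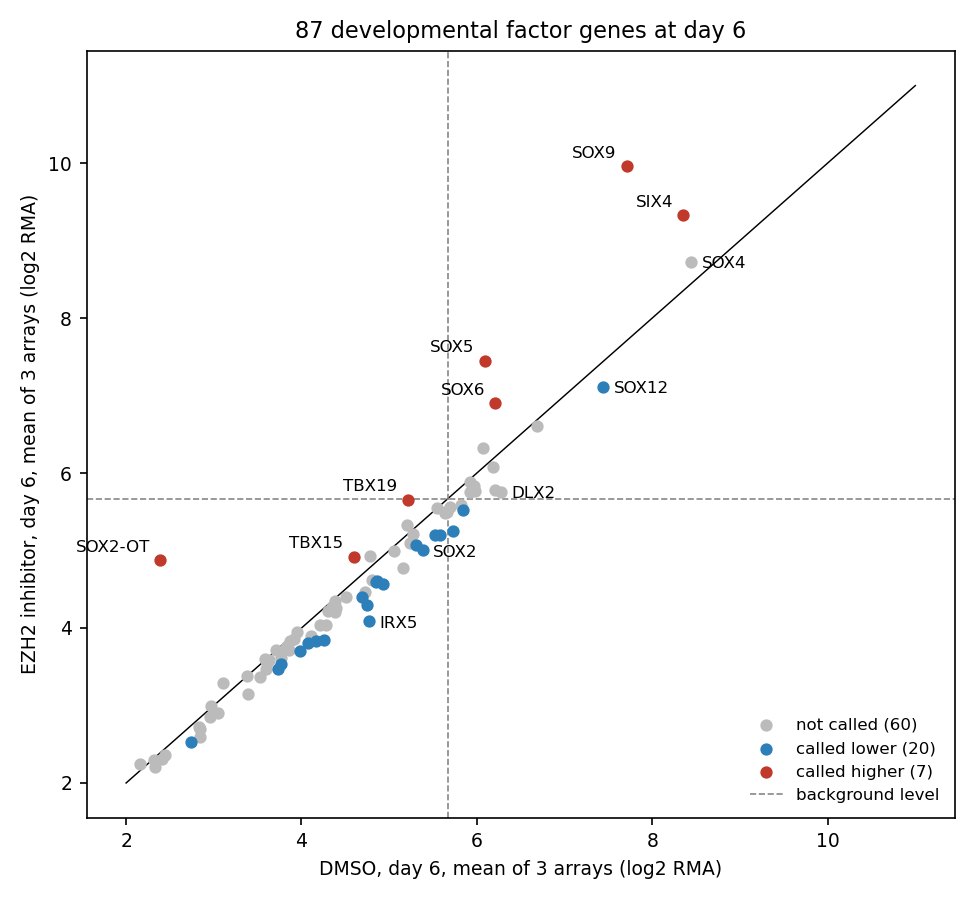
Each point is 1 of the 87 genes, with its mean over 3 DMSO arrays at day 6 on the x axis and over 3 inhibitor arrays on the y axis (log2 RMA values); dashed lines mark the background level of 5.67 and the solid line equal values. Most points lie in the lower left square on or slightly under the diagonal, SOX2-OT stands far above it at the left, and SOX9, SIX4, SOX5 and SOX6 stand above it on the right.

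Called changes came late. At day 1 none of the 87 was called in either direction, beside 0.475% of all genes called higher and 0.0101% lower. At day 2 SOX9 alone was called higher and none lower, beside 3.57% and 0.824% of all genes. At an unadjusted limma p under 0.05, 2 of the 87 were higher and 1 lower at day 1, and 4 and 7 at day 2. All genes were not counted at that threshold, so these counts have no share to stand beside. At day 3 SOX9, SIX4 and SOX2-OT were higher and SIX5 lower, which is 3.45% and 1.15% of the 87 beside 8.64% and 7.65% of all genes. At day 6, 7 were higher (SOX9, SOX2-OT, SOX5, SIX4, SOX6, TBX19 and TBX15) and 20 lower, 8.05% and 23.0% beside 18.5% and 26.9% of all genes. Genes at or under the background level are called less often. Of the 67 factors with a DMSO mean there, 4.48% were higher and 25.4% lower at day 6, beside 9.35% and 17.7% of all 9528 such genes. Of the 17 above it in every DMSO group, 17.6% were higher and 11.8% lower, beside 27.0% and 35.5% of all genes above it. In a fit blocked on replicate number, 1 was higher at day 1 (SOX9, 0.94 ± 0.18, adjusted p = 0.0097) and 6 at day 3 (adding DLX1, SOX5 and SOX6), with 2 lower at day 3 (SIX5 and LHX1). The same fit called 1.23% of all genes higher at day 1, and 11.3% higher and 11.9% lower at day 3. At day 6 it called 8 of the factors higher and 23 lower, 9.2% and 26.4% beside 20.3% and 29.9% of all genes. Between days 1 and 6 it called 15.0% of all genes as gaining and 17.5% as losing. By a test of the change in effect between days 1 and 6, SOX9, SOX2-OT, SIX4 and SOX6 gained (4 genes, beside 12.3% of all genes) and NKX2-8, SOX2, TBX5, TBX6 and TBX18-AS1 lost (5 genes, beside 14.4%).

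**Figure D2:**
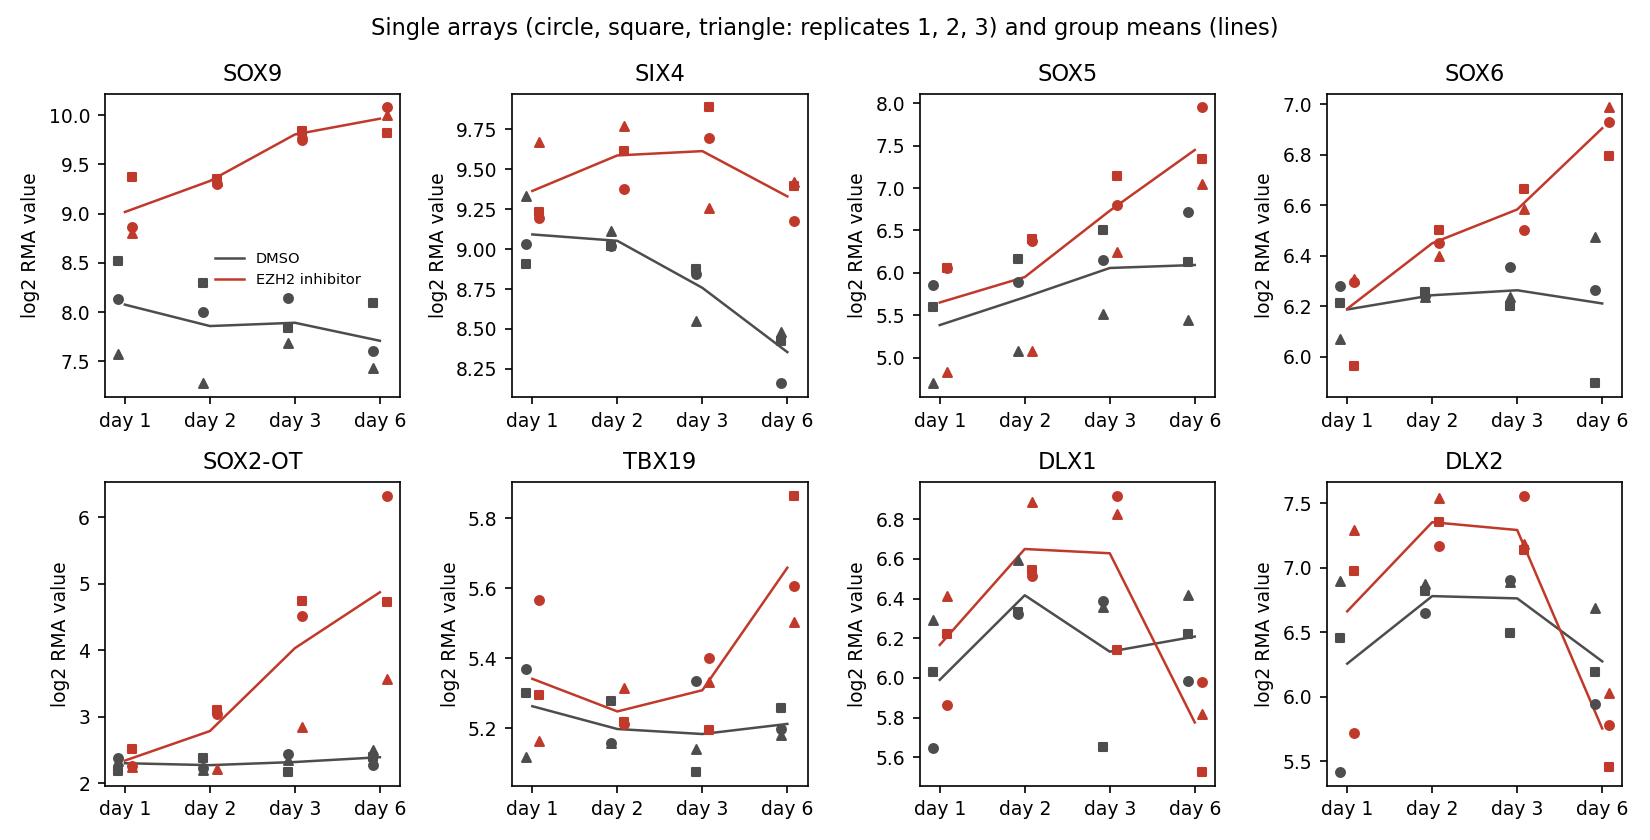
Log2 RMA values of 8 genes on single arrays (circles, squares and triangles for replicates 1, 2 and 3; grey DMSO, red inhibitor) at days 1, 2, 3 and 6, evenly spaced, with lines through group means; each panel has its own y range. SOX9 separates from DMSO on every day, SIX4 separates while its DMSO arrays decline, SOX2-OT is above all DMSO arrays on 2 inhibitor arrays at day 2, and DLX1 and DLX2 peak under the inhibitor before day 6.

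SOX9, the HMG-box factor that drives cartilage and testis formation, moved first and, among factors above background, most. Its gene lies at chr17:72121020-72126416. In DMSO it read 8.13, 8.52 and 7.58 at day 1, 8.01, 8.29 and 7.28 at day 2, 8.14, 7.84 and 7.69 at day 3, and 7.60, 8.09 and 7.43 at day 6. Under the inhibitor it read 8.87, 9.38 and 8.81, then 9.31, 9.35 and 9.34, then 9.75, 9.84 and 9.82, and at last 10.08, 9.81 and 10.00. On each day the lowest inhibitor array was above the highest DMSO array. The difference was 0.94 ± 0.23 at day 1 (adjusted p = 0.075), 1.47 ± 0.23 at day 2 (0.00027), 1.91 ± 0.23 at day 3 (3.3e-06) and 2.26 ± 0.23 at day 6 (3.4e-08), a 4.77-fold rise. Its other probe set agreed at day 6, with DMSO at 7.39, 7.03 and 6.61 and the inhibitor at 9.18, 8.98 and 8.93 (2.02 ± 0.23, called). The antisense-named neighbour SOX9-AS1 stayed at background and differed by -0.08 ± 0.12 at day 6. The gain of 1.31 ± 0.32 in SOX9's effect from day 1 to day 6 was called (adjusted p = 0.0035), but not without all 8 arrays of replicate 1 (1.10, adjusted p = 0.13).

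SOX5 and SOX6, the SoxD factors that act beside SOX9 in cartilage, were both called higher at day 6, each on its brightest probe set only. SOX5 (chr12:23529504-24562650) read 6.71, 6.12 and 5.44 in DMSO and 7.95, 7.34 and 7.05 under the inhibitor at day 6. No arrays overlapped, though replicate 3 was the lowest of its group in each of the 8 groups. The difference was 0.27, 0.24 and 0.68 on the earlier days and 1.36 ± 0.43 at day 6 (adjusted p = 0.012, 2.56-fold). It missed the threshold without DMSO replicate 3 (1.03, adjusted p = 0.078) or without inhibitor replicate 1 (1.10, 0.066), and the replicate block gave it 1.36 ± 0.17 at day 6 (1.5e-06) and called it at day 3 too (0.68 ± 0.17, 0.007), as well as the gain from day 1 to day 6 (1.09 ± 0.25, 0.0015; without the block 1.09 ± 0.60, 0.2). The 3 other SOX5 probe sets differed by -0.05, 0.32 and -0.08, none called.

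SOX6 (chr11:15966449-16738477) read 6.27, 5.89 and 6.47 in DMSO and 6.93, 6.80 and 6.99 under the inhibitor at day 6, again without overlap. The differences over the 4 days were 0.00, 0.21, 0.32 and 0.69 ± 0.11 (adjusted p at day 6 = 2.5e-05, 1.62-fold), and the gain from day 1 to day 6 was called (0.69 ± 0.16, adjusted p = 0.002). Its 7 other probe sets differed by -0.27 to 0.01 and none was called, and the mean of all SOX6 probe sets differed by -0.01 (adjusted p = 0.88). None of 12 listed cartilage genes that SOX9 is known to drive was called higher at day 6 and 2 were lower, beside 18.5% and 26.9% of all genes. Of the 12, 2 were above background in DMSO. COL9A3, a chain of collagen IX, went from 7.63 to 5.93 (-1.71 ± 0.21, adjusted p = 6.6e-07), and HAPLN1, a proteoglycan link protein, differed by -0.33 ± 0.12 (0.022). COL2A1 and ACAN, the main collagen and proteoglycan of cartilage, stayed at background and differed by -0.08 and -0.23 with no call.

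SIX4, a homeobox factor that works with EYA coactivators in muscle and kidney, was above background from the start. Its gene lies at chr14:60709539-60724351. At day 6 it read 8.16, 8.42 and 8.48 in DMSO and 9.18, 9.39 and 9.42 under the inhibitor. The groups did not overlap at days 2, 3 and 6 (at day 6 0.98 ± 0.16, adjusted p = 2.1e-05, 1.97-fold; at day 3 0.86 ± 0.16, 0.00041), and the differences at days 1 and 2 were 0.27 and 0.53 (adjusted p = 0.98 and 0.053). The growing difference came with a falling DMSO arm. DMSO means went from 9.09 at day 1 to 8.36 at day 6 (-0.74 ± 0.16, adjusted p = 0.039), the one called change of DMSO over time among the 87 (beside 0.238% of all genes called higher and 0.0506% lower), while inhibitor means were 9.36, 9.59, 9.61 and 9.33. That DMSO call was lost without any of the 3 DMSO day 6 arrays, or without DMSO replicate 1 or 3 of day 1. Its dimmer probe set differed by 0.32 ± 0.17 at day 6 with no call.

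SOX2-OT, the long non-coding RNA whose gene spans SOX2, differed most at day 6. Its group means stayed under the background level, though inhibitor replicate 1 of day 6 read above it. The gene lies at chr3:181056680-181742228 and SOX2 at chr3:181711925-181714436. It read 2.38, 2.18 and 2.33 in DMSO and 2.26, 2.52 and 2.23 under the inhibitor at day 1. At day 2 the inhibitor arrays read 3.04, 3.10 and 2.21 against 2.23, 2.38 and 2.20 in DMSO. At day 3 they read 4.51, 4.74 and 2.84 against 2.44, 2.17 and 2.34, and at day 6 they read 6.32, 4.73 and 3.56 against 2.27, 2.39 and 2.50. The groups were apart at days 3 and 6, with replicate 3 the lowest inhibitor array on each day. The difference was 0.04, 0.51, 1.71 ± 0.46 (adjusted p = 0.012) and 2.48 ± 0.46 (0.00012), and day 3 missed the threshold without inhibitor replicate 1 (1.47, 0.057) or replicate 2 (1.36, 0.085). Its inhibitor mean of 4.87 at day 6 was still under the background level, so no fold change is given. SOX2-OT has 1 probe set here, of the type whose probes can bind other transcripts.

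SOX2 itself, the pluripotency and neural stem cell factor, gave opposite readings. Its brightest probe set read 5.35, 5.44 and 5.37 in DMSO and 5.12, 5.11 and 4.78 under the inhibitor at day 6 (-0.38 ± 0.10, adjusted p = 0.0033). Its dimmest read 2.23, 2.38 and 2.49 in DMSO and 3.99, 3.55 and 2.86 under the inhibitor, which is 1.10 ± 0.19 higher (adjusted p = 1e-04 over all probe sets of the array). Both pairs of groups were free of overlap. The dimmest was highest in replicate 1 and lowest in replicate 3 of the inhibitor at day 6, as SOX2-OT was. That order did not hold at day 3, when the dimmest was also called higher (0.72 ± 0.19, adjusted p = 0.018 over all probe sets). Its inhibitor arrays read 2.91, 3.06 and 3.09 that day, so replicate 3 was the highest, whereas replicate 3 was the lowest for SOX2-OT. At day 6 the 2 remaining probe sets differed by -0.23 each with no call, and the mean of all 4 by 0.06. The direction of SOX2 mRNA is thus not settled by these arrays.

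**Figure D3:**
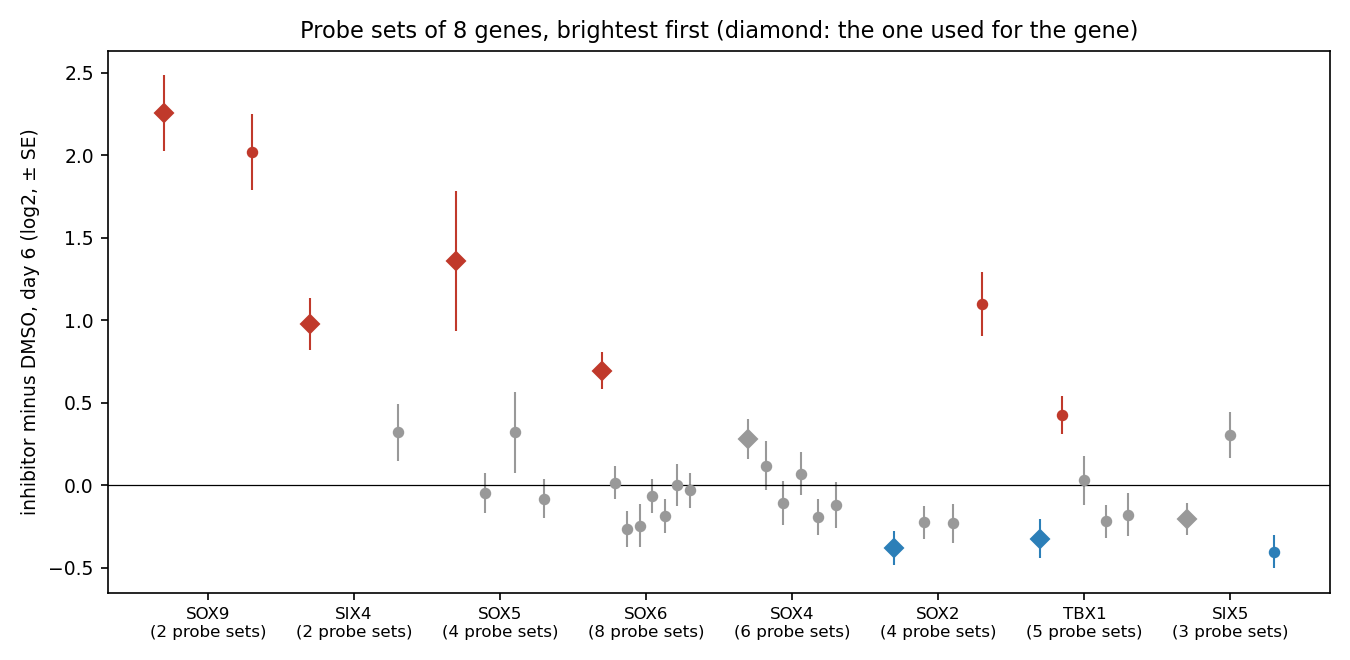
The day 6 difference (log2, inhibitor minus DMSO, with bars of 1 standard error) of every probe set of 8 genes, brightest first within a gene. Diamonds are the probe sets used for the genes, red is called higher, blue called lower and grey not called, adjusted over all probe sets of the array. Both SOX9 probe sets are red, SOX5 and SOX6 are each red on the diamond only, and SOX2 and TBX1 each hold a blue and a red one.

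Opposite readings within a gene were also seen for TBX1 and SIX5. TBX1, the T-box factor of the pharyngeal arches, was called lower at day 6 on its brightest probe set (-0.33 ± 0.12, adjusted p = 0.033) while another went from 4.30, 4.52 and 4.49 to 4.91, 4.92 and 4.77 (0.43 ± 0.12, called higher). SIX5 was called lower at day 3 (-0.36 ± 0.09, adjusted p = 0.01), a call lost without DMSO replicate 1 (-0.32, 0.051) or inhibitor replicate 2 (-0.27, 0.087), and another of its probe sets was higher by 0.45 that day.

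The T-box factors TBX19 and TBX15 rose within the background range at day 6. TBX19, which turns on the POMC gene in pituitary corticotrophs, read 5.20, 5.26 and 5.18 in DMSO and 5.61, 5.86 and 5.50 under the inhibitor (0.45 ± 0.10, adjusted p = 0.0013). TBX15, a factor of skeletal development, read 4.56, 4.70 and 4.53 against 4.97, 4.90 and 4.90 (0.32 ± 0.12, adjusted p = 0.029). Neither pair of groups overlapped. The TBX15 call was lost without DMSO replicate 1 or 3 or inhibitor replicate 1 or 3 of that day (0.29 to 0.34, adjusted p = 0.052 to 0.089), and the TBX19 call was kept in all 6 such fits.

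The 20 genes called lower at day 6 were mostly at background (16 of the 20 in all 8 groups), and their differences were small, from -0.21 to -0.68 with a median of -0.32. The T-box genes were TBX6, TBX4, TBX5, TBX1, TBX3, TBX2-AS1 and TBX18-AS1. The GATA genes were GATA6, GATA5, GATA6-AS1 and GATA3-AS1, and the NKX genes NKX6-1, NKX2-8, NKX6-2 and NKX2-2. The rest were IRX5, IRX2, SOX2, SOX12 and SIX3-AS1. IRX5, a factor of heart and retina, read 4.81, 4.79 and 4.71 in DMSO and 3.81, 4.06 and 4.39 under the inhibitor, the lowest of the differences (-0.68 ± 0.17, adjusted p = 0.0023). TBX6, which specifies paraxial mesoderm, read 5.87, 5.68 and 5.62 against 5.47, 5.08 and 5.22 (-0.47 ± 0.11, 0.0016). GATA6, a factor of endoderm and heart, read 4.70, 4.89 and 4.65 against 4.33, 4.44 and 4.13 (-0.45 ± 0.12, 0.0053). The arrays of the 2 groups overlapped for GATA5 only among the 20. Calls on the same arrays picked these genes, so this separation adds no further evidence. The share of all genes without overlap was not counted.

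A shift of the same size ran through the genes that set the background level. The median difference of the 87 was -0.03, -0.07, -0.06 and -0.13 at days 1, 2, 3 and 6, that of the 154 reference genes -0.02, -0.08, -0.08 and -0.15, and that of all genes -0.01, -0.04, -0.04 and -0.11. At day 6, 31 of the 154 reference genes were called lower and 1 higher, and 90% of them lay between -0.39 and 0.11. Of the 20 lower factors, 4 (IRX5, TBX6, GATA6 and NKX6-1) lay under that range. Against the median gene in place of 0, a setting added after the data were seen, 7 of the 87 were called lower (IRX5, TBX6, GATA6, SOX2, NKX2-8, TBX4 and TBX2-AS1) and 10 higher, or 8.05% and 11.5%, beside 15.9% and 22.8% of all genes under that setting. Of the 20 calls, 8 were kept whichever array of that day was left out, and the count was 12 without DMSO replicate 2 of day 6 and 9 to 12 without all 8 arrays of one replicate number. The day 6 median was -0.12 over all genes at or under the background level in DMSO and -0.09 over all genes above it. Why the values shifted was not tested.

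**Figure D4:**
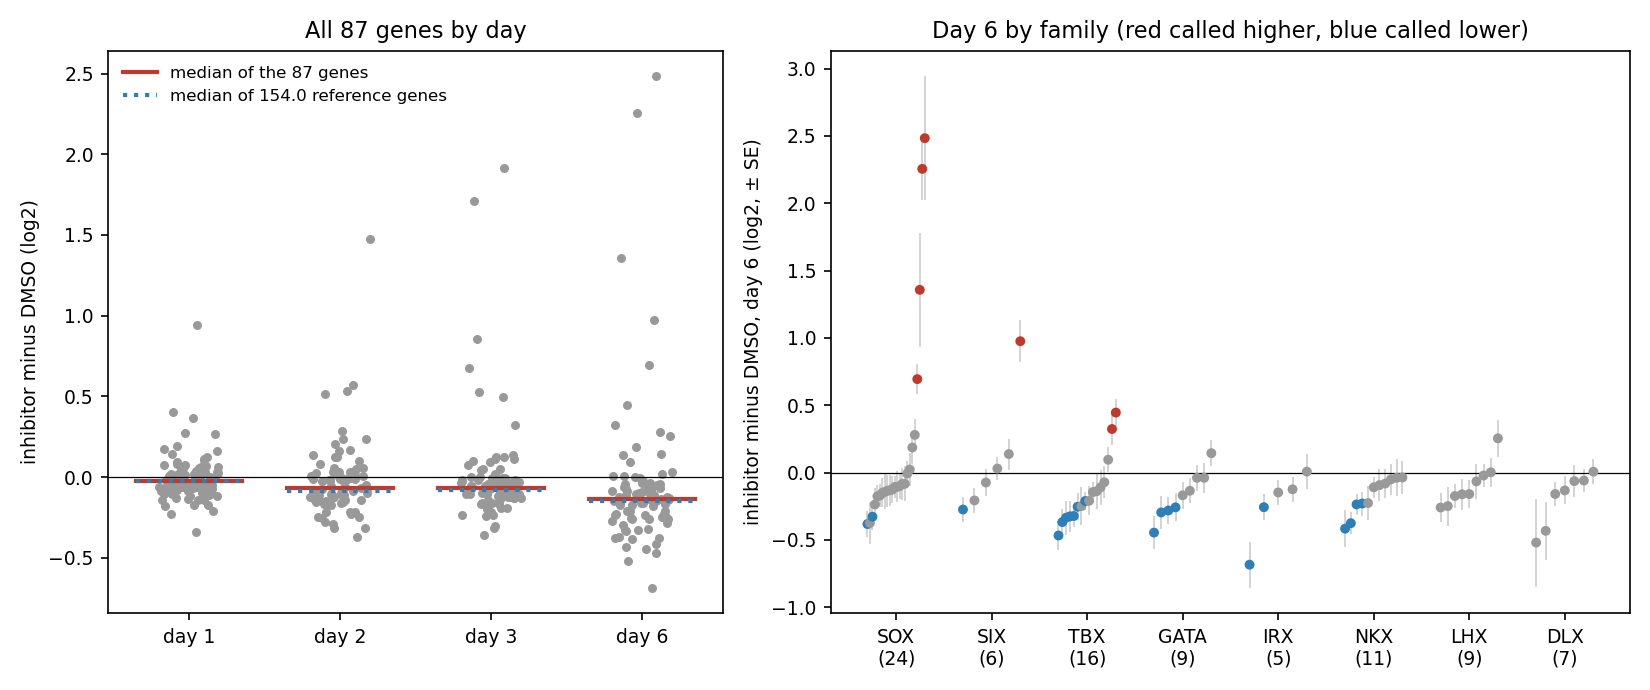
Left, the difference (log2, inhibitor minus DMSO) of each of the 87 genes by day, with the median of the 87 (red bar) and of the 154 reference genes (dotted blue bar). Right, the day 6 difference of each gene with 1 standard error, by family with the number of genes in brackets; the medians move down together, while the upper tail is made of SOX genes, SIX4 and 2 TBX genes.

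By family, the called rises at day 6 lay in SOX (4 of 24), TBX (2 of 16) and sine oculis (1 of 6), and none was in the GATA, LHX, NKX, DLX and IRX families, beside 18.5% of all genes. LHX and DLX had no call in either direction at day 6 except with the replicate block, which called LHX1 and DLX1 lower. Family medians ran from -0.21 in TBX to -0.02 in sine oculis. Differences between families were not tested.

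Of the 17 factors above background in every DMSO group, SOX9, SIX4 and SOX6 were higher and SOX12 and TBX2-AS1 lower at day 6. SOX4, a SOX factor of early B-cell and T-cell development, read 8.42, 8.38 and 8.53 in DMSO and 8.59, 8.80 and 8.79 under the inhibitor at day 6 (0.28 ± 0.12, adjusted p = 0.056). Its differences on the earlier days were 0.37, 0.28 and 0.11, and with the replicate block day 6 was called (0.28 ± 0.10, adjusted p = 0.025). The dimmer SOX4 probe sets differed by -0.19 to 0.12 at day 6, in both directions and none called. SOX12, of the same SOX subgroup, read 7.39, 7.42 and 7.51 against 7.17, 6.96 and 7.20 (-0.33 ± 0.10, 0.0086), a call lost without inhibitor replicate 2 (-0.25, 0.057) and against the median gene (-0.22, 0.081). The dimmer SOX12 probe set differed by 0.04 ± 0.09 with no call. NKX2-5, GATA2, GATA4, NKX2-1, NKX6-3, SOX10, SOX15 and LHX4-AS1 differed by -0.23 to 0.25 at day 6, none called. A further GATA4 probe set was called lower that day (-0.43 ± 0.10, adjusted p = 0.0016). So was the further NKX6-3 probe set (-0.30 ± 0.11, 0.034), and no other further probe set of these genes was called.

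DLX1 and DLX2, forebrain and jaw homeobox genes that sit 9764 bases apart on chromosome 2, differed upward from DMSO at days 1 to 3 and downward at day 6. Under the inhibitor DLX1 differed by 0.18, 0.23 and 0.50 on days 1, 2 and 3 and by -0.43 ± 0.22 at day 6, with no call on any day; the replicate block called days 3 and 6 (adjusted p = 0.049 on both). DLX2 differed by 0.41, 0.57 and 0.53 and then by -0.52 ± 0.33, also uncalled. The change from day 3 to day 6 was called for DLX1 (-0.93 ± 0.31, adjusted p = 0.049) and not for DLX2 (-1.05 ± 0.46, 0.16); beside it, 5.98% of all genes gained and 6.53% lost between these days. At day 6 DLX2 read 5.94, 6.19 and 6.69 in DMSO and 5.78, 5.45 and 6.03 under the inhibitor, so the groups overlapped. Replicates spread widely for both, and with the replicate block the DLX1 change was -0.93 ± 0.25 (0.012) and the DLX2 change -1.05 ± 0.39 (0.07). The DLX1 call was lost without DMSO replicate 2 or inhibitor replicate 1 or 3 of day 3, and without DMSO replicate 2 or 3 or inhibitor replicate 2 or 3 of day 6. The dimmer DLX1 and DLX2 probe sets, both at background, differed by -0.20 and -0.26 at day 6.

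Among the remaining 48 genes, the brightest were LHX5, GATA1, LHX6, SOX13, SIX2 and TBX2, whose differences at day 6 ran from -0.17 to 0.14. The widest uncalled differences among them were those of SOX1 (-0.37 ± 0.16, adjusted p = 0.061), LHX1 (-0.26 ± 0.11, 0.051, or 0.035 with the replicate block), TBX20 (-0.25) and LHX9 (-0.25). Another SOX1 probe set was called lower (-0.41 ± 0.14, adjusted p = 0.026), and the remaining SOX1 probe set was not (-0.11).

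Among known partners of these factors, LMO4 changed most. Of 18 listed cofactors of sine oculis, GATA and LIM-homeobox proteins, 3 were higher and 2 lower at day 6 (16.7% and 11.1%, beside 18.5% and 26.9% of all genes), with a list median of -0.03. LMO4, a LIM-only protein that competes for the LIM cofactor LDB1, went from 7.96 to 10.56 (2.60 ± 0.16, adjusted p = 2.6e-11), while LDB1 itself was lower by 0.32 ± 0.09 (0.009). TLE3, a Groucho corepressor, was higher by 0.55, and ZFPM1, the GATA partner FOG1, by 0.36. Of 13 measured T-cell genes that TBX21 or GATA3 is known to drive, 1 was higher, the cytotoxic granule gene PRF1 (0.52 ± 0.11, 0.0006), and 5 lower, among them the chemoattractant receptor PTGDR2 (-0.39), granzyme B (GZMB, -0.37) and the chemokine receptor CXCR3 (-0.37); the list median was -0.11. These are 7.69% and 38.5%.

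Of 75 measured developmental transcription factors of other families, 2 were higher and 19 lower at day 6 (2.67% and 25.3%, beside 18.5% and 26.9% of all genes), with a median of -0.15, and 64 of them were at background in DMSO. ZIC2 was higher by 0.88 ± 0.28 (adjusted p = 0.015) and TFAP2A by 0.33 ± 0.12 (0.038). WT1 was lower by 1.52 ± 0.21 (4.1e-06), the nuclear receptor NR2F1 by 0.96 and TBXT, the notochord T-box factor brachyury, by 0.73; TBXT was bright in DMSO, at 9.22. None of these 64 rose by 1 or more. Of 11 listed subunits of the repressive complex itself, 3 were higher and 5 lower (27.3% and 45.5%).

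Markers of B cells and of other cell types were read beside the same shares, 18.5% of all genes higher and 26.9% lower. Of the 9 measured B-cell markers 8 were above background in DMSO, among them CD79A, PAX5 and MS4A1, and 4 were higher at day 6; CD72, at background in DMSO, was higher by 2.56. Their summed log2 level at day 6 ran from 82.4 to 83.9 on the DMSO arrays and from 87.4 to 88.3 on the inhibitor arrays. Of 13 markers of stromal, endothelial and epithelial cells 2 were higher (DCN 0.57 and KRT18 0.20) and 2 lower. Their sum ran from 65.6 to 66.1 in DMSO and from 65.1 to 65.5 under the inhibitor. In DMSO 3 of the 13 were above background, with a highest mean of 12.72, and EPCAM, VWF, CDH5 and KDR lay at background. Of 8 myeloid markers, all at background in DMSO, 1 (LYZ, 2.52) was higher and 4 lower, and their sum ran from 32.5 to 33.2 in DMSO and from 33.6 to 34.2 under the inhibitor. Of 12 T and NK cell markers 1 was higher and 1 lower (sums of 66.6 to 68.3 and 65.8 to 66.8), and of 6 erythroid and megakaryocyte markers none was higher and 1 lower (30.5 to 30.6 and 29.3 to 30.1). Above background in DMSO were 5 of the 12 (highest mean 10.99) and 2 of the 6 (highest mean 5.84). In bulk RNA, fewer cells that express a gene and less RNA per cell cannot be told apart, and the part of these markers in the results above was not tested.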

How the data were processed

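The 24 RNA samples of KARPAS-422 were each read on an Affymetrix U133 Plus 2 array. The authors deposited log2 expression made with RMA, and the submitters' processing notes name R 2.10.1. The log base is not given in the sources used here, but values from 1.72 to 14.33 have the range of log2. Arrays carry no read depth, so the number of arrays limits the precision.

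Of 54613 probe sets, 41091 carried 1 gene symbol, 1801 several and 11721 none here; the brightest single-symbol probe set stood for each of 19775 genes. Differences were fitted with limma 3.58.1 in R 4.3.3 (1 coefficient for each of 8 groups, eBayes, 16 residual and 5.22 prior degrees of freedom) and Benjamini-Hochberg adjustment over all genes, called at 0.05. Single probe sets were fitted in the same way, with the adjustment over all 54613. The scripts were tested on simulated data. Named genes were every called factor, every factor above background in all DMSO groups, of the others the 6 brightest and the 4 with the widest uncalled differences, and up to 4 called genes of each related list. The members and lists were chosen with earlier results of these data known.

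Alternatives changed the probe set rule, the dim-gene filter, scaling, replicate block, arrays in the fit, weights, prior and background level, and left out each array. Same-numbered arrays deviated together: the median correlation of deviations was 0.24 for the same number and -0.13 otherwise, and for 23 of 24 arrays the closest array bore the same number. All pairs of days 1, 3 and 6 were over 0.1, and 1 pair of day 2 was at 0.043. Blocked results of day 2 are therefore given only among the alternatives. The blocked fit itself used all 24 arrays, those of day 2 included. No arrays within a group were near copies (standard deviation of their differences 0.173 to 0.25).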

Additional observations from a re-analysis of the deposited data

Results flagged for a closer look

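Each result here is a change in the effect of the inhibitor between days that passed limma's test of the difference itself (adjusted p over all genes under 0.05). From day 1 to day 6 the effect grew for SOX2-OT by 2.44 ± 0.65 (adjusted p = 0.0066), for SOX9 by 1.31 ± 0.32 (0.0035), for SIX4 by 0.70 ± 0.22 (0.02) and for SOX6 by 0.69 ± 0.16 (0.002). It turned downward for TBX6 by -0.61 ± 0.16 (0.0053), TBX5 by -0.50 ± 0.18 (0.044), NKX2-8 by -0.47 ± 0.11 (0.003), SOX2 by -0.41 ± 0.14 (0.034) and TBX18-AS1 by -0.26 ± 0.09 (0.044). From day 3 to day 6 it turned downward for DLX1 by -0.93 ± 0.31 (0.049).

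The SIX4 change was lost without DMSO replicate 3 of day 1 (0.58, adjusted p = 0.065), inhibitor replicates 1 or 2 of day 1 (0.62 and 0.64, 0.058 and 0.055) or DMSO replicate 1 of day 6 (0.61, 0.06). The SOX2-OT, SOX9, SOX6, TBX6 and NKX2-8 changes were kept whichever single array was left out, and those of TBX5, SOX2 and TBX18-AS1 were lost without several. Leaving out all 8 arrays of a replicate number ended each of these 10 calls at least once, except that of SOX6. The median reference gene changed by -0.13 between the same days.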

How the results depend on the processing

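Of 32 calls of a gene on a day (changes between days not counted), 10 were kept under every alternative; of 624 checks 479 kept the call, 139 lost it and 6 reversed. The causes were not tested.

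Genes called higher at day 1 went from 0 to 1 with the replicate block and 2 with the block within each day. At day 2 higher went from 1 to 2 (without dim genes, array medians, weights, trend, median gene, block), 3 (fit limited to the groups) and 4 (block within day), and lower from 0 to 1 (limited), 2 (both blocks) and 3 (weights). At day 3 higher went from 3 to 5 (limited), 6 and 7 (blocks), and lower from 1 to 0 (mean of probe sets, only probe sets without an _s or _x suffix) and 2 (blocks, weights). At day 6 the replicate block gave 8 higher and 23 lower, against 7 and 20. Lower went from 20 to 7 without dim genes and to 7 against the median gene. The setting without dim genes took some called genes, IRX5 and GATA6 among them, out of the fit, so they were not tested there. For the day 6 minus day 1 effect lower went from 5 to 2 (mean of probe sets, median gene), 3 (dim genes, array medians) and 11 (block within day). TBX5 and TBX18-AS1 were likewise left out of the fit without dim genes. For day 6 minus day 3 higher went from 0 to 2 (block within day), and lower from 1 to 0 (both probe set rules, array medians, weights, trend, median gene) and 4 (block within day). For DMSO over time higher went from 0 to 2 (block within day) and lower from 1 to 0 (mean of probe sets, limited). EZH2 at day 3 was called at -0.29 with either replicate block and at -0.31 with weights.

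Released genes went from 0 to 1 with the 90th or 99th percentile, mean of probe sets, array medians or the rule of 1 log2 (TBX19, SOX5, TBX19, TBX19 and SOX2-OT). Genes above background in DMSO went from 17 to 26 (90th percentile), 4 (99th), 29 (40th percentile of all genes) and 11 (mean of probe sets).

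Leaving out arrays gave, higher and lower, 0 to 1 and 0 to 0 at day 1, 1 to 2 and 0 to 0 at day 2, 2 to 3 and 0 to 2 at day 3, 5 to 8 and 9 to 19 at day 6, 2 to 5 and 0 to 5 for day 6 minus day 1, 0 to 1 and 0 to 1 for day 6 minus day 3, and 0 to 0 and 0 to 1 for DMSO; EZH2 ran from -0.07 to 0.17, -0.16 to -0.02, -0.36 to -0.22 and -0.71 to -0.59 at days 1, 2, 3 and 6.

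Reversed were SIX5 at day 3 (0.00 with the mean of probe sets, 0.45 with unsuffixed probe sets only), SOX2 at day 6 (0.06) and its change from day 1 (0.07), SOX6 at day 6 (-0.01), all with the mean of probe sets, and TBX1 (0.43) and TBX3 (0.08) at day 6 with unsuffixed probe sets only.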

Other observations

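Of the 90 further probe sets of these genes, 1 was called higher and 1 lower at day 2, 3 and 0 at day 3, and 3 and 4 at day 6, adjusted over all probe sets of the array. SOX2, SOX9 and TBX1 held the 3 called higher at day 6, and GATA4, NKX6-3, SIX5 and SOX1 the 4 called lower. Of the 14 genes called at day 6 that have several probe sets, SOX9 was the one for which another probe set was called in the same direction.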
